A study of Mus musculus with 6 samples.

Results

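The chromatin genes described here are 7 high-mobility-group genes (Hmgb1, Hmgb2, Hmgb3, Hmgn1, Hmgn2, Hmgn3 and Hmga1) together with Ager, the gene of the receptor for advanced glycation end products, which binds HMGB1 outside the cell. They are 8 of the 26789 genes in the table, found by matching Ensembl identifiers to symbols. The group was chosen by the values of Hmgb1, whose control and E3–E12 diet libraries did not overlap although 1 control library was far above all others, so the diet difference of Hmgb1 is given as a description without a test. The other members were taken by family name, and all 8 passed the filter (mean normalized count of 10 or more across the 6 libraries).

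RNA was measured in microglia of mouse offspring at postnatal day 15, taken from the rostral nucleus of the solitary tract (NST), the brainstem target of the taste nerves. Dams of the E3–E12 diet mice ate low-sodium food from embryonic day 3 to day 12, dams of controls ate control food, and each group had 3 libraries. Mice were on the C57Bl/6 background, and the labels name no allele or agent beside the maternal diet. Each library was 1 litter with the tissue of littermates pooled, so individual pups and their sexes cannot be told apart. The study's methods describe enrichment with CD11b magnetic beads followed by RNA amplification, whereas the deposited design text names laser microdissection.

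High-mobility-group proteins are abundant, non-histone proteins of chromatin. HMGB proteins bend DNA through HMG boxes, HMGN proteins bind nucleosomes and compete with linker histone H1, and HMGA proteins bind AT-rich DNA. HMGB1 can also leave stimulated or dying cells and act on microglia and macrophages through AGER and Toll-like receptors, which is why receptor and nuclear protein are considered side by side.

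The microglial label was checked first. All 10 microglia markers were detected in every library, and their summed level ran from 90347 to 478690 normalized counts in controls and from 91929 to 279240 in E3–E12 diet mice, with control replicate 2 the highest. Neuronal markers summed to 95.9 to 1264 in controls and 748 to 1421 in E3–E12 diet mice, and oligodendrocyte-lineage markers to 3850 to 30469 and 4050 to 16803, so transcripts of other cells were present. Astrocyte markers summed to 1102 to 1444 and 1297 to 3251, endothelial markers to 4456 to 8911 and 5161 to 9039, and choroid plexus markers, the most variable, to 547 to 18522 and 52.4 to 39517. Red blood cell markers stayed at or below 125 in every library. Control replicate 2 stood apart: 10640 genes were listed at 0 there against 3459 to 7135 elsewhere, and Spearman's correlation with the other libraries was 0.69 to 0.778 against 0.765 to 0.912 among them. It held the highest value for 26.3% of the genes tested. That share was 22.7% for E3–E12 diet replicate 1 and 10.9% to 14% for the remaining libraries. The summed normalized counts were 9.67e+06, 1.72e+07 and 1.19e+07 for controls 1 to 3, and 9.41e+06, 1.12e+07 and 1.47e+07 for E3–E12 diet replicates 1 to 3. The difference of each member is given with and without control replicate 2 because that library stood apart.

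All 8 are protein-coding genes (GRCm38). Hmgb1 lies at chr5:149046702-149184489 (minus strand), Hmgb2 at chr8:57511907-57515999 (plus) and Hmgb3 at chrX:71555918-71560676 (plus). Hmgn1 lies at chr16:96120618-96127729, Hmgn2 at chr4:133964738-133968650 and Hmgn3 at chr9:83109948-83146685, all on the minus strand. Hmga1 (chr17:27556497-27563674) and Ager (chr17:34597862-34600936) are on the plus strand.

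Many of these genes have processed copies elsewhere in the genome, and a short read cannot be placed between sequences that are alike over its whole length. The start of the Hmgb1 coding sequence is shown to make this visible. It is coding bases 1 to 120 of the annotated transcript of 2838 bases, in exon 2 of 5 on the minus strand at chr5:149050618-149050737 (GRCm38), and sequences here are from the GENCODE vM21 transcripts, written 5′ to 3′. Capitals in the lines after Hmgb1 mark bases that differ from it.

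Hmgb1: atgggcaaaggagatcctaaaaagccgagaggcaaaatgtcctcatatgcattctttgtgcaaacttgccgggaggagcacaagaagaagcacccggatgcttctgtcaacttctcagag
Gm15387: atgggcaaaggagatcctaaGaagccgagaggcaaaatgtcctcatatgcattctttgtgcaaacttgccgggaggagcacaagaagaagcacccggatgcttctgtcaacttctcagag
Gm21596: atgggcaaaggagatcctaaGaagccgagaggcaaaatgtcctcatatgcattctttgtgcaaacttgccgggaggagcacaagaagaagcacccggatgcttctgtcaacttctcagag
Hmgb1-ps8: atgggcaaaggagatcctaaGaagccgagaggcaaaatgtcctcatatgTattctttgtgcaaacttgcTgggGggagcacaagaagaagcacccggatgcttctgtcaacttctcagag
Hmgb2: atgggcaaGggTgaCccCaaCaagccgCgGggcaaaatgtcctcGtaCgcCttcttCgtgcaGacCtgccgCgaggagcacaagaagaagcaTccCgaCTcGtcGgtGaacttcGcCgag
Hmgb3: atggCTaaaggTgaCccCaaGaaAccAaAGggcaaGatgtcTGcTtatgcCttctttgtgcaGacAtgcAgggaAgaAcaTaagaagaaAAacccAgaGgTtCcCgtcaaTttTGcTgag

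The processed pseudogenes Gm15387 and Gm21596 matched Hmgb1 at 119 of the 120 bases, both with the substitution A21G, counted from the first coding base. Hmgb1-ps8 matched at 116 bases, with A21G, C50T, C70T and A74G. The paralogs Hmgb2 and Hmgb3, which are expressed genes with functions of their own, matched at 97 and 88 bases.

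Over the whole coding sequence of Hmgb1 (645 bases), 98.5% of the runs of 50 bases also occurred in an annotated copy outside the locus, and a single run was found in as many as 52 copies. The corresponding share of coding runs was 95.7% for Hmgb2, 89.8% for Hmgb3, 100% for Hmgn2, 79.9% for Hmga1 and 56.9% for Hmgn1. Hmgn3 and Ager had no such run and serve as the members without copies. Over the full Hmgb1 transcript the share was 40.9% of 2789 runs. Reads were paired-end, and 75 bp long per the labels. A shared run of 50 bases therefore does not by itself leave a read pair unplaceable, and these shares are not shares of reads.

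**Figure D1:**
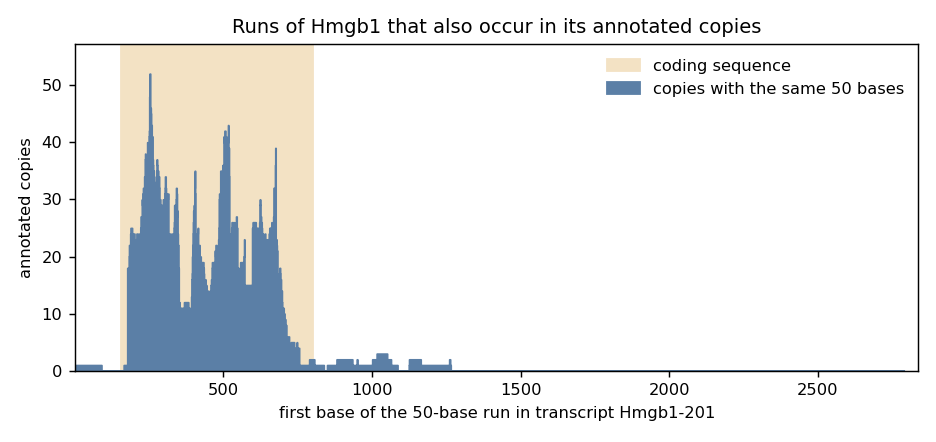
Number of annotated copies that hold the same 50 bases, by the first base of the run along the 2838 bases of the Hmgb1 transcript, with the coding sequence shaded. The copies crowd on the coding sequence, up to 52 at 1 position, and are few or absent over the rest of the transcript.

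The HMGN stretches are shown because Hmgn1 and Hmgn2 lay on opposite sides of the diet comparison. The stretches below are 90 bases of coding sequence each, aligned on the nucleosome-binding core, whose 18 bases (6 codons) are in capitals.

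Hmgn1: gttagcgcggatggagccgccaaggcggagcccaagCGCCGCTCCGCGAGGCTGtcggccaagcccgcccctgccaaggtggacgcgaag
Hmgn2: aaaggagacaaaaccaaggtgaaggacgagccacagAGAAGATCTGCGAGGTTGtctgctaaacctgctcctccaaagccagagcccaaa
Hmgn3: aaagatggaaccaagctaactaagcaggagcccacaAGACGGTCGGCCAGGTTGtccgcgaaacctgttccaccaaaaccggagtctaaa

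Hmgn2 and Hmgn3 had the same base at 58 of the 90 positions, Hmgn1 and Hmgn2 at 49, and Hmgn1 and Hmgn3 at 45.

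The diet groups were then compared. No gene of the 18007 tested passed an adjusted p of 0.1 (0% called, smallest adjusted p = 0.225, limma), 327 genes had an unadjusted p under 0.05 (1.82%), and the groups did not overlap for 1062 genes (5.90%), with the E3–E12 diet group above controls for 538 (2.99%) and below for 524 (2.91%). Among the 7 members other than Hmgb1, none passed at adjusted p, none had an unadjusted p under 0.05, and 2 did not overlap, Hmgn1 (lower) and Hmgn2 (higher). All 7 adjusted p-values were 0.999 (limma). In bulk RNA, fewer cells of a type and less RNA per cell cannot be told apart.

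**Figure D2:**
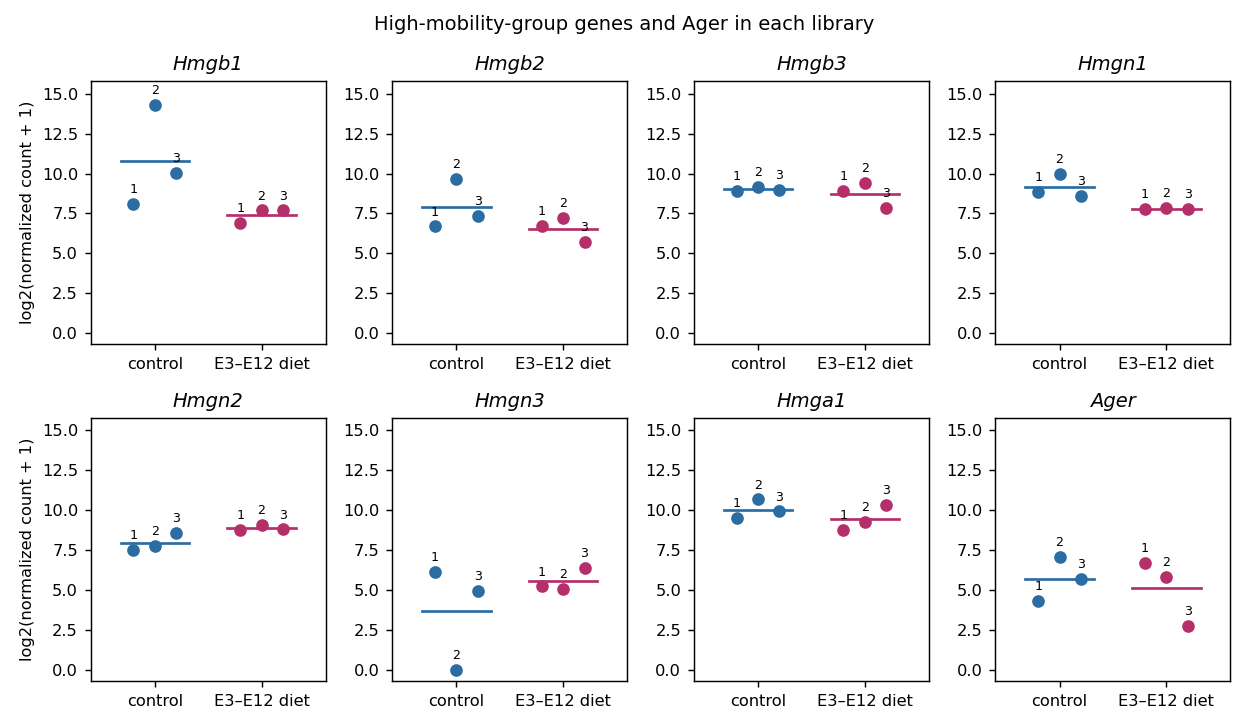
Level of each of the 8 genes as log2(normalized count + 1) in the 3 control and 3 E3–E12 diet libraries, with replicate numbers above the points and a line at each group mean. Hmgb1 ran from 274 to 20219 in controls and from 118 to 205 in E3–E12 diet mice, and Hmgn1 and Hmgn2 are the other genes whose groups do not overlap.

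Among the HMGB genes, Hmgb1, a ubiquitous DNA-bending protein and extracellular alarmin, stood at 274, 20219 and 1041 normalized counts in controls 1 to 3. In E3–E12 diet mice its values were 118, 205 and 205. The groups did not touch, yet the gap between the lowest control (274) and the highest E3–E12 diet library (205) was small beside the distance to control replicate 2. The group means were 7178 ± 11301 and 176 ± 50.1 (SD, n = 3 each), so the control SD exceeded its mean. The log2 fold change (E3–E12 diet against control, on the log2(normalized count + 1) scale throughout) was -3.39, with a standard error of 1.53, and it was -1.64 without control replicate 2.

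The reading of control replicate 2 for Hmgb1 was 19.4 times the next highest library, a ratio reached by 102 of the 18007 genes tested (0.566%). Hmgb1 made up 0.118% of the summed normalized counts of that library and 0.00125% to 0.00874% of the other 5. Microglia markers were also highest in that library, and neutrophil markers summed to 3001 there against 389 to 590 elsewhere. The part of these differences in the Hmgb1 level was not tested.

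**Figure D3:**
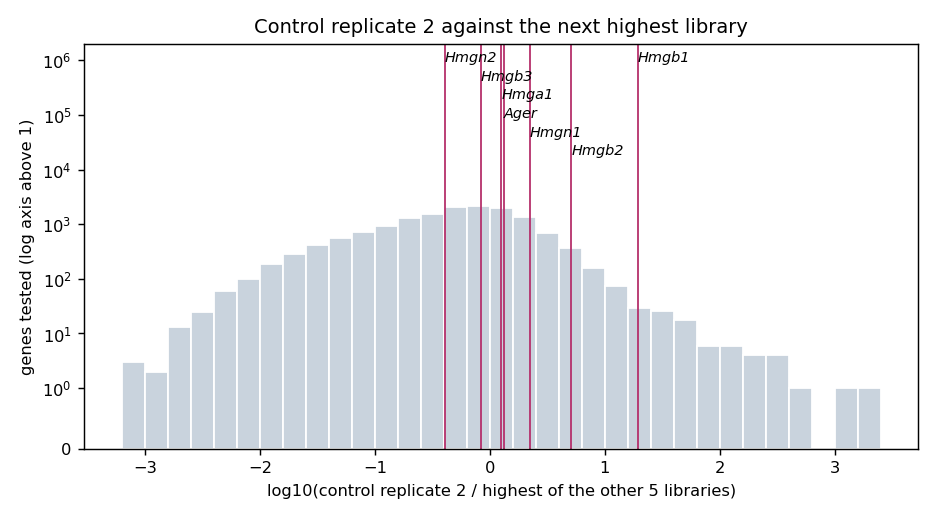
Number of genes tested (log axis above 1) by log10 of control replicate 2 over the highest of the other 5 libraries, for genes with a value above 0 in control replicate 2 and in another library, with 7 members marked by lines. Hmgb1, at a ratio of 19.4, lies in the right tail, Hmgb2 follows at 5.13, and Hmgn3, listed at 0 in that library, has no line.

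Hmgb2, an HMGB protein of dividing cells, had 102, 822 and 160 normalized counts in controls 1 to 3 and 103, 147 and 51.1 with the E3–E12 diet. Control replicate 2 was again the highest, and the groups overlapped. The log2 fold change was -1.36 ± 0.94 (SE; exact permutation test, two-sided, p = 0.3, where the smallest possible p is 0.1), and -0.47 without control replicate 2.

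Hmgb3, an HMG-box protein linked to progenitor cells, had 477, 571 and 505 normalized counts in controls and 484, 684 and 226 in E3–E12 diet mice. Control replicate 2 did not stand out here. The log2 fold change was -0.29 ± 0.63 (SE; exact permutation p = 0.8), and -0.22 without control replicate 2. It changed sign to 0.16 without E3–E12 diet replicate 3, the lowest library.

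Hmgn1, a nucleosome-binding protein that loosens chromatin, had 456, 1015 and 388 normalized counts in controls 1 to 3. The E3–E12 diet libraries lay close together at 216, 229 and 218, below the lowest control. Means were 620 ± 344 and 221 ± 7.12 (SD, n = 3 each), and the log2 fold change was -1.35 ± 0.61 (SE; unadjusted limma p = 0.0651, adjusted p = 0.999; exact permutation p = 0.1, the smallest possible). Without control replicate 2 the log2 fold change was -0.93. Leaving out a library cannot make separate groups overlap, so that omission is no check on the lack of overlap.

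Hmgn2, a closely related nucleosome-binding protein, lay in the opposite order. Its values were 184, 218 and 380 normalized counts in controls and 431, 539 and 444 in E3–E12 diet mice, all above the highest control. Means were 261 ± 104 and 471 ± 59.2 (SD, n = 3 each), and the log2 fold change was 0.92 ± 0.57 (SE; unadjusted limma p = 0.157, adjusted p = 0.999; exact permutation p = 0.1). It was 0.82 without control replicate 2, and the groups overlapped once values were scaled to each library's sum. Hmgn1 and Hmgn2 were thus 2 of 7 members without overlap, beside 5.90% of all genes tested. No test of the difference between the Hmgn1 and Hmgn2 responses was run.

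Hmgn3, a further nucleosome-binding relative, was listed at 69.8, 0 and 29.6 normalized counts in controls 1 to 3 and at 36.4, 32.9 and 81.9 with the E3–E12 diet. The ranges overlapped, and the log2 fold change was 1.87 ± 1.58 (SE; exact permutation p = 0.4). It was 0.02 without control replicate 2 and 0.84 with a pseudocount of 10.

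Hmga1, an AT-hook protein of growing cells, had 730, 1639 and 973 normalized counts in controls and 432, 605 and 1300 in E3–E12 diet mice. The highest E3–E12 diet library exceeded the lower controls, so the groups overlapped. The log2 fold change was -0.59 ± 0.68 (SE; exact permutation p = 0.4), and -0.27 without control replicate 2.

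Ager, the receptor, was low in every library. Controls had 19.3, 136 and 50.1 normalized counts and E3–E12 diet mice 103, 56.1 and 5.83. The spread inside each group was as wide as the range of the other, and the log2 fold change of -0.60 ± 1.22 (SE; exact permutation p = 0.7) turned to 0.09 without control replicate 2 and to 0.56 without E3–E12 diet replicate 3.

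**Figure D4:**
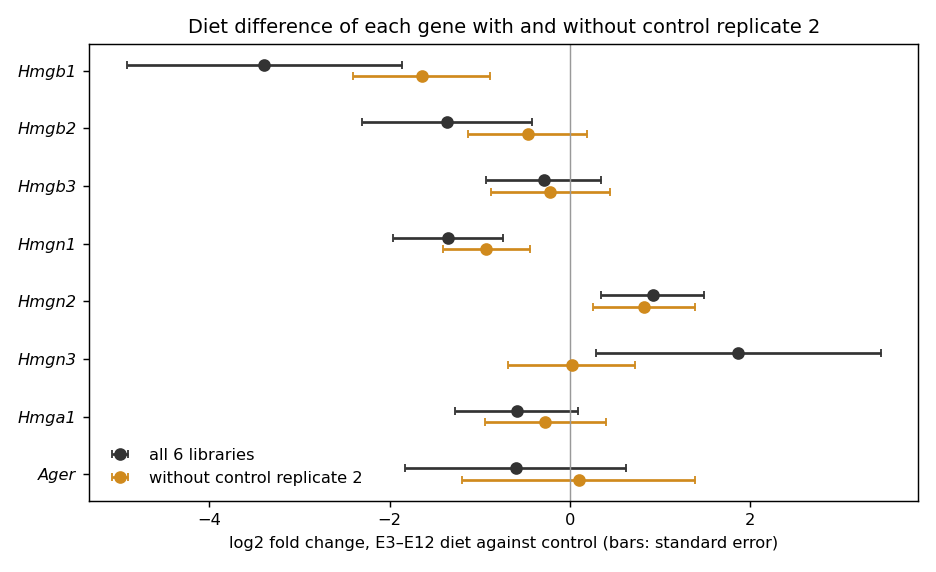
Log2 fold change (E3–E12 diet against control, x axis) of the 8 genes with its standard error as bars, from all 6 libraries and from the 5 without control replicate 2. Hmgb1 moved from -3.39 to -1.64 and Hmgn3 from 1.87 to 0.02, while Hmgn1 (-1.35 and -0.93) and Hmgn2 (0.92 and 0.82) moved less.

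Scaled by transcript length, the order of the members by median over the 6 libraries was Hmga1 (522 normalized counts per kb), Hmgb3 (320.5), Hmgn2 (320.4), Hmgn1 (142), Hmgb1 (84.4), Hmgb2 (47.6), Ager (38.8) and Hmgn3 (35.2). The ranges over libraries overlapped for every pair of neighbours in this order. The order differed between groups: by control medians Hmga1 (597) was followed by Hmgb1 (367), Hmgb3 (327), Hmgn1 (210) and Hmgn2 (172), and by E3–E12 diet medians Hmga1 (371) was followed by Hmgn2 (351), Hmgb3 (314), Hmgn1 (100.1) and Hmgb1 (72.1). In control replicate 2 Hmgb1 reached 7125 per kb, far above Hmga1 (1005), whereas with the E3–E12 diet it was 41.5 to 72.2 per kb, below Hmgn1 (99.3 to 105). These values use 1 annotated transcript per gene and leave out the copies. The share of transcript runs also found in copies was 83.2% for Hmga1, 40.9% for Hmgb1, 6.54% for Hmgn1 and 0% for Hmgn3 and Ager. Levels of different members are therefore not strictly comparable, and the effect on the order was not tested.

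The 5 genes whose log2 levels were most like Hmgb1 over all genes tested were Fbxl12, Kif3b, Syncrip, Lilra5 and Acad10 (r = 0.995, 0.993, 0.993, 0.992 and 0.988 over 6 libraries). These r values share control replicate 2 as the extreme point. Syncrip, an RNA-binding protein, had 5187 normalized counts there against 622 to 1231 in the other 5 libraries.

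The annotated copies were examined next. A copy was any annotated gene outside the member's locus sharing at least 1 run of 50 bases with its transcripts (179 genes) or marked as a copy by its symbol alone (2 genes), and 61 of these 181 had a value in the table. Of these, 45 belonged to Hmgb1, 4 to Hmgb2, 6 to Hmgb3, 2 to Hmgn1, 3 to Hmgn2 and 1 to Hmga1. Ppm1e and Tmx3 are protein-coding genes that shared under 1% of their own runs and were kept out of the sums, which left 59 copies. Of the 59, 15 were tested: 9 had higher and 6 lower mean log2 levels in E3–E12 diet mice, 3 did not overlap (1 higher, 2 lower; 5.90% of all genes tested did not) and none passed an adjusted p of 0.1.

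Two-sided limma tests gave an unadjusted p under 0.05 for 2 of the 15 tested copies, Hmgb1-ps8 and Gm7909, both of Hmgb1, beside 1.82% of all genes tested. Reads of Hmgb1 can fall on its copies, and the group was chosen by the values of Hmgb1. The p-values and overlaps of these copies may therefore not be independent of that choice. Hmgb1-ps8 had 60.2, 191 and 93.3 normalized counts in controls and 7.87, 42.8 and 24.6 in E3–E12 diet mice, a log2 fold change of -2.27 ± 0.82 (SE; unadjusted p = 0.0300, adjusted p = 0.999, limma). Its highest library was control replicate 2, as for Hmgb1, and the log2 fold change was -1.82 without it. Gm7909 had 1.55, 0 and 7.72 in controls and 13.4, 29.1 and 10.3 in E3–E12 diet mice, a log2 fold change of 2.59 ± 0.93 (SE; unadjusted p = 0.0285, adjusted p = 0.999, limma). Its mean over the 6 libraries was 10.34, so it passed the filter of 10 only through its E3–E12 diet values. Its p-value and its lack of overlap may therefore depend on that filter. Hmgb1-ps5 was the other tested copy below every control, at 33.7, 24.9 and 102 against 13.5, 21.4 and 19.8, with a log2 fold change of -1.26. Gm7870, too low to be tested, was at 3.12, 13.4 and 1.66 in controls and listed at 0 in all E3–E12 diet libraries. Gm15560 and Hmgb1-ps4, lower still and also untested, lay above every control. Gm15560 had 0.781, 1.93 and 3.88 in controls and 5.62, 7.89 and 6.61 in E3–E12 diet mice. Hmgb1-ps4 had 0, 0 and 0.551 in controls and 2.23, 1.12 and 1.88 in E3–E12 diet mice.

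Copies close to Hmgb1 in sequence differed in control replicate 2. Gm15387 was listed at 62.8, 0 and 215 normalized counts in controls and at 138, 143 and 230 in E3–E12 diet mice. Gm21596 was listed at 163, 0 and 33.6 in controls and at 135, 78.5 and 3.77 in E3–E12 diet mice. Hmgb1-ps2 was highest in that library, at 0, 19.6 and 0 in controls and 0, 3.44 and 0 in E3–E12 diet mice. Of the 44 summed Hmgb1 copies, 29 (65.9%) were listed at 0 in control replicate 2, where 39.7% of all genes were. In the other 5 libraries 34.1% to 59.1% of the copies and 12.9% to 26.6% of all genes were listed at 0, so the copies exceeded the share over all genes in every library.

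Single libraries decided other copies. In E3–E12 diet replicate 1, 6 Hmgb1 copies (Gm13239, Gm9078, Gm15692, Gm11830, Gm13024 and Gm15778) had at least 10 normalized counts while every other library had fewer than 2, and together they gave 368 normalized counts. Gm13239 alone stood at 182 there. That library also had the most genes detected nowhere else, 1676 against 77 to 518. The remaining Hmgb1 copies with at least 10 normalized counts in a library were Gm12568, Gm8152, Gm12261, Gm14049, Gm14162, Hmgb1-ps6, Gm27254, Gm13577, Gm26585, Hmgb1-ps2, Hmgb1-ps3, Gm13379, Gm7870 and Gm3307, with maxima from 12.3 to 49.1.

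The sum of Hmgb1 and its copies depended on which copies were counted. All 44 copies summed to 504, 337 and 520 normalized counts in controls 1 to 3 and to 837, 483 and 448 with the E3–E12 diet, so they were 1.64% to 87.7% of Hmgb1 plus copies. Hmgb1 with its copies stood at 778, 20556 and 1561 in controls and 955, 688 and 652 in E3–E12 diet mice. The groups then overlapped, with E3–E12 diet replicate 1 above control replicate 1. That overlap rested on Gm13239, which shared 2 of its 588 runs (0.34%) with Hmgb1, since E3–E12 diet replicate 1 was at 773 without it, below control replicate 1 (778). The log2 fold change was -1.95 with the copies and -0.55 with the copies and without control replicate 2. When the sum was kept to the 28 copies that shared at least 10% of their own runs, a rule added after the data were seen, the values were 738, 20486 and 1545 in controls and 621, 637 and 634 with the E3–E12 diet. The groups then did not overlap (log2 fold change -2.18, and -0.76 without control replicate 2). Most of the difference between the sums lay in E3–E12 diet replicate 1, where 5 of the 6 copies present in that library alone shared less than 10% of their runs.

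**Figure D5:**
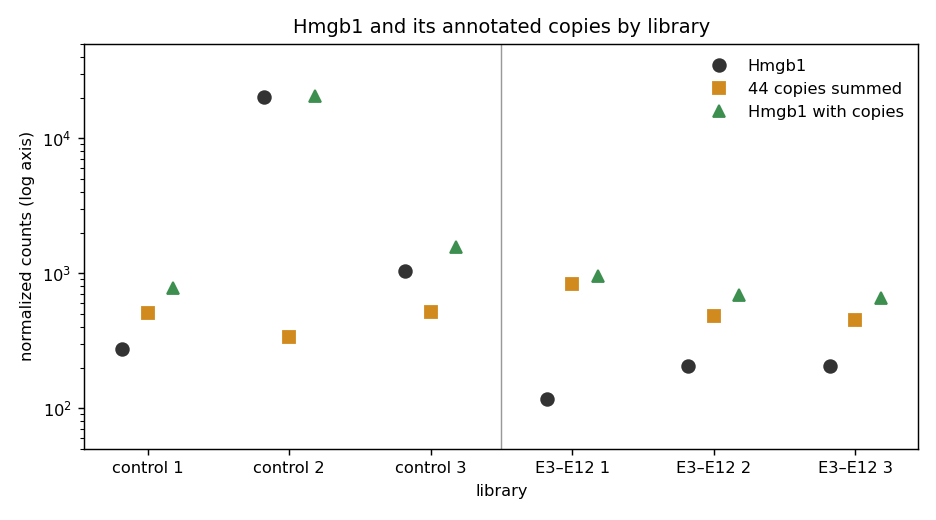
Normalized counts (log axis) of Hmgb1, of its 44 copies summed and of both together in each of the 6 libraries. The copies stay between 337 and 837 while Hmgb1 spans 118 to 20219, and with the copies added E3–E12 diet replicate 1 (955) lies above control replicate 1 (778).

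The copies of the other members were smaller beside their genes. Hmgb3 had the largest share after Hmgb1, with copies at 15.4% to 47.0% of the sum, chiefly Gm11805 (59.5 to 191 normalized counts). Gm18367, Gm12365 and Gm6104 were its other copies above 10, with maxima of 32.1, 17.9 and 11.5. With copies, Hmgb3 had a log2 fold change of -0.10 (exact permutation p = 0.7). Hmgb2 with its copies, of which Gm14537 and Gm13237 reached 32.7 and 46.6, had a log2 fold change of -1.03 (exact permutation p = 0.5), and -0.16 without control replicate 2.

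For the HMGN genes the copies moved little. Hmgn1 with its 2 copies (at most 1.01% of the sum) kept a log2 fold change of -1.35, and Hmgn2 with its 3 copies (at most 12.8%, Gm10282 the largest at up to 27.1 normalized counts) had 0.86, both without overlap between groups (exact permutation p = 0.1 each). Hmga1b, the annotated copy of Hmga1, reached 23.8 normalized counts and at most 2.30% of the sum. Hmga1 with Hmga1b had a log2 fold change of -0.60 (exact permutation p = 0.4).

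Genes that work with the members were then counted from lists arranged by role. Over 77 genes tested, 0 passed an adjusted p of 0.1, 0 had an unadjusted p under 0.05 (limma; 1.82% of all genes), and 5 did not overlap between groups (6.49%, beside 5.90% of all genes tested). The 5 were Ssrp1, Xpo1 and Cdk1 (higher) and Hmgn5 and H1f0 (lower). Without control replicate 2, 11 of the 77 did not overlap (14.4% of all genes tested did not overlap in those 5 libraries). The 11 include these 5 by construction, since leaving out a library cannot make separate groups overlap. Without that library, 23 of the 77 log2 fold changes changed sign. Of the genes named below, the sign changed for Pbrm1, Itgam, Havcr2, S100a8, S100a9, Ep300, Anp32a, Hist1h1c, Mki67 and Pcna.

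Of 22 other HMG and HMG-box genes tested, 10 had positive and 12 negative log2 fold changes, with a median of -0.14. Ssrp1, an HMG-box subunit of the histone chaperone FACT, had 191, 205 and 374 normalized counts in controls and 603, 464 and 716 in E3–E12 diet mice, a log2 fold change of 1.25 ± 0.58 (SE; adjusted p = 0.999, limma). Hmgn5, a further nucleosome-binding relative, had 63.6, 172 and 79.5 in controls and 57.8, 45.0 and 53.0 in E3–E12 diet mice, a log2 fold change of -0.87 ± 0.62 (SE). Among the most abundant genes of the list, the repressor Cic (0.33), the chromatin remodeller subunit Pbrm1 (-0.14) and the Wnt effector Tcf7l2 (0.18) had small log2 fold changes.

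Linker histones, which HMGN proteins displace, summed to 580, 1291 and 556 normalized counts in controls 1 to 3 and to 455, 338 and 396 with the E3–E12 diet. Only 3 of the 7 listed were tested, and the replacement histone H1f0 had 428, 658 and 369 normalized counts in controls and 257, 245 and 316 with the E3–E12 diet, without overlap (log2 fold change -0.79 ± 0.56, SE). Hist1h1e was at -1.57 ± 0.88, or -0.78 without control replicate 2, and Hist1h1c at 0.43 ± 1.11 (SE), both with overlapping groups.

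The 15 receptors and adaptors of HMGB1 gave 8 positive and 7 negative log2 fold changes and no group without overlap. Itgam, the integrin that is the CD11b antigen itself, ran from 12271 to 23771 normalized counts in controls and from 8307 to 34466 in E3–E12 diet mice (log2 fold change -0.14 ± 0.73, SE). Tlr9, the endosomal DNA sensor, was at 0.46 ± 0.70 and Havcr2, an inhibitory receptor that binds HMGB1, at -0.42 ± 0.95.

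Other ligands of AGER were the S100 genes, of which 5 of 7 were tested and none separated the groups. S100a9 and S100a8, the neutrophil calprotectin subunits, were highest in control replicate 2 (1289 and 573 normalized counts) as Hmgb1 was. S100a11 was lowest there (120 against 175 to 1339).

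Of 12 genes of HMGB1 export, modification and release, 6 had positive and 6 negative log2 fold changes. Xpo1, the nuclear exporter that carries HMGB1 to the cytoplasm, had 388, 81.9 and 399 normalized counts in controls and 614, 880 and 583 in E3–E12 diet mice, a log2 fold change of 1.54 ± 0.79 (SE; adjusted p = 0.999, limma), and 0.79 without control replicate 2. The acetyltransferases Ep300 (-0.15) and Crebbp (0.06) and the inflammasome sensor Nlrp3 (0.23) had small log2 fold changes.

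The SET complex, which contains Hmgb2, had 4 positive and 1 negative log2 fold change among 5 genes, from -0.02 for Anp32a to 0.96 for Set, with Apex1 at 0.32. All overlapped between groups. Of 15 proliferation genes, 8 had positive and 7 negative log2 fold changes, among them Mki67 (-0.39), Top2a (-0.23) and Pcna (0.35). Cdk1, the mitotic kinase, had 45.4, 70.2 and 57.2 normalized counts in controls and 128, 77.3 and 154 in E3–E12 diet mice, a log2 fold change of 1.01 ± 0.58 (SE).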

How the data were processed

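RNA of microglia from 3 control and 3 E3–E12 diet litters was sequenced by the authors (paired-end, 75 bp per the labels, 50 bp in the study's methods). The submitters' processing notes name FastQC, STAR, featureCounts, DESeq2 and the build GRCm38. The deposited table holds a normalized signal (normalized counts per gene) whose name refers to surrogate variables, and no source used here describes that adjustment. The low values came out as whole reads too rarely for counts to be recovered (50.4% to 72.5% within 0.1 of a whole number), so no count model was run, and depth is known only as approximate.

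Values were transformed as log2(normalized count + 1), genes with a mean of at least 10 were kept (18007 of 26789), and limma 3.58.1 (R 4.3.3) tested diet with Benjamini-Hochberg adjustment over all of them at a threshold of 0.1. The fit was tried on simulated data with the same independent noise for every gene and no outlying library. That setting is simpler than these data, so the trial does not show how the fit behaves here. Single values were tested with exact permutation tests, two-sided. Python 3.11.15 was used elsewhere. Genes named are all members, all copies reaching 10 normalized counts, and Gm15560 and Hmgb1-ps4, copies below it whose groups did not overlap. For each list, the most abundant genes are named together with those whose groups did not overlap. The members and lists were chosen with earlier results of these data known. Of the listed genes, Hmgb4 and Txnrd1 were not analysed here. Alternatives were another pseudocount, other filters, quantile and per-million scaling, array weights, a replicate block, each library left out and, chosen after the data were seen, a variance trend, a stricter definition of copies, the Hmgb1 sum without Gm13239, and copies and list genes without control replicate 2. Replicates were separate litters per the study's methods.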

Additional observations from a re-analysis of the deposited data

How the results depend on the processing

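Of 203 log2 fold changes recomputed for the 8 genes, 6 of them also with copies, 198 kept their direction and 5 changed sign. The other filters, the replicate block and the variance trend cannot alter a member's log2 fold change, nor can adding copies for Hmgn3 and Ager. Those values kept their direction by construction. Of the 203, none of the 174 that were tested passed an adjusted p of 0.1, and the other 29, for Hmgb1, had no test. Hmgb3 changed sign to 0.16 without E3–E12 diet replicate 3, with -0.64 to 0.16 over all single-library omissions. Ager ran from -1.40 to 0.56. Its sign changed when control replicate 2 (0.09) or E3–E12 diet replicate 3 (0.56) was omitted. Hmgb3 with its copies became 0.0245 under per-million scaling and 0.13 without E3–E12 diet replicate 3 (omissions -0.34 to 0.13). The cause was not tested. Hmgb1 ran from -4.74 to -1.64 over omissions and -2.91 to -0.55 with its copies.

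Over all genes, the count past adjusted p 0.1 was 0, but 1 with a minimum mean of 50 and 5 with array weights. The count with an unadjusted p under 0.05 (limma) was 327 of 18007 genes tested. It was 207 of only 12973 genes with the minimum mean of 50. With all 18007 genes it was 491 with quantile normalization and 1205 with array weights. Over omissions, which tested 17162 to 18124 genes, it was 276 to 539, the most without control replicate 1. Genes without overlap numbered 2257 to 3167 over omissions, where fewer libraries make separation easier. Unadjusted p for Hmgn1 was 0.0462 with the minimum mean of 50, 0.044 with quantile normalization and 0.0356 with a variance trend (chosen after seeing the data), and its smallest adjusted p anywhere was 0.745.

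The replicate numbers were not taken as pairs, since no source used here pairs the litters. Deviations of same-numbered libraries correlated at 0.26, 0.0348 and 0.142. Different-numbered libraries were not compared, so these values do not decide the question. With the replicate block, 0 genes passed (smallest adjusted p = 0.98, limma), and Hmgn1 had an unadjusted p of 0.0785. The block left the log2 fold changes as they were, which the balanced design requires. It lowered the median standard error to 0.709, and 468 genes had an unadjusted p under 0.05 against 327 without it. With 3 libraries per group and a median standard error of 0.849 on the log2 scale, a log2 difference of 1 was close to 1 standard error for a typical gene.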
